A study of Mus musculus with 2 samples.

Results

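Activated, lipid-handling myeloid cells of the injured neonatal mouse cortex were described as a set of single barcodes. A barcode (the droplet tag that stands for 1 cell or nucleus) was a member when it held at least 1000 unique molecular identifiers (UMIs), at least 500 genes and at most 10% mitochondrial UMIs, with UMIs of at least 2 of the activation genes Gpnmb, Mrc1, Ms4a7, Cd300a, Apobec1 and Plin2, of at least 2 of the myeloid genes Csf1r, Tyrobp, Ptprc, Myo1f, Apbb1ip and Cx3cr1, and with at most 2 neuronal UMIs (Slc17a7, Gad1 and Gad2 summed). The members were therefore chosen by the measured values of these genes, and those values are given as a description only. The rule found 723 barcodes among 17653 that passed the limits and 18642 in all. Of these, 689 came from the library of white matter injury (WMI) and 34 from the control library.

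The study modelled the white matter injury of preterm infants in C57BL/6 mice and profiled the cerebral cortex by droplet single-cell RNA sequencing, with 1 library of each condition analysed here. The labels give surgery on postnatal day 7, sampling on postnatal day 14, an age of 2 weeks and 1 h of hypoxia, and describe nuclei. The treatment text is the same in both records, ligation of a carotid artery followed by hypoxia. In the records the control is therefore known only from its title and its group label, whereas the study describes sham and WMI hemispheres. The study's methods describe dissociated cells, an earlier operation and a longer hypoxia, so the ages and doses are those of the labels only.

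The control library held 10288 barcodes and 66470806 UMIs, and the WMI library 8354 barcodes and 60568639 UMIs. The median barcode within the limits had 4727.5 UMIs (control) or 5267 UMIs (WMI), and the median mitochondrial share was 0.0628% or 0.458%. The libraries also differed in sex-linked RNA. No control barcode within the limits carried Xist (the RNA that silences an X chromosome in females) without a Y-linked UMI, against 2366 WMI barcodes, while 2067 WMI barcodes carried a Y-linked UMI without Xist. A further 2854 WMI barcodes (35.2%) carried both and 826 neither, so splits by these calls leave out those barcodes, 294 of the WMI members among them. The WMI library thus held animals of both sexes and the control library showed male barcodes, and 36 barcode sequences occurred in both libraries, none of them members. With 1 library a condition, no difference between conditions was tested, and every interval below covers counting error only.

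Microglia are the resident macrophages of the brain, kept in a surveying state by signals from neighbouring cells, whereas border macrophages line the meninges and vessels. After injury or demyelination, phagocytes take up myelin and dying cells, and the cholesterol that this brings in is either stored as esters in lipid droplets or returned to lipoproteins. Plin2 coats lipid droplets, Gpnmb is a transmembrane glycoprotein of lysosome-rich phagocytes, and Apobec1 edits the messenger RNA of apolipoprotein B and other transcripts. Mrc1 is a mannose receptor typical of border macrophages, Ms4a7 a membrane protein of macrophages, and Cd300a an inhibitory receptor for exposed phosphatidylserine.

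Gpnmb is carried on chromosome 6 (49036546 to 49070929, plus strand) and Plin2 on chromosome 4 (86648386 to 86670060, minus strand) of GRCm38. Their promoters, from 250 bases before to 50 after the RefSeq start, are shown because both genes define the members and both windows could be searched for the E-box letters CACGTG and CATGTG that Mitf and the related Tfe factors are known to bind. The Gpnmb window is chr6:49036268-49036567 (plus strand) and the Plin2 window chr4:86670010-86670309 (minus strand), both of GRCm38.p6, and capitals mark a match.
Gpnmb: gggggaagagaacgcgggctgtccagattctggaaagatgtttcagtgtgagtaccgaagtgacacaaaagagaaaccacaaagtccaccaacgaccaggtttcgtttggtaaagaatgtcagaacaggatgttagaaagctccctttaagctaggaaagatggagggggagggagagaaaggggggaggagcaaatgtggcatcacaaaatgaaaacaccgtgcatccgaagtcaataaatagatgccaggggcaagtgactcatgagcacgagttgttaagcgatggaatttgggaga
Plin2: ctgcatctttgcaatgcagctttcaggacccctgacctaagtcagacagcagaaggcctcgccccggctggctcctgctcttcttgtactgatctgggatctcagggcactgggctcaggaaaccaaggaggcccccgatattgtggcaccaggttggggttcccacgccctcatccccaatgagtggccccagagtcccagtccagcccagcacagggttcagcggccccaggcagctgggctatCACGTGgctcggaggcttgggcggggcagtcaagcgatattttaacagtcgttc

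The Plin2 window held CACGTG once, from base 247 of the window, so that the match began 4 bases before the start. The Gpnmb window held neither motif on either strand. CACGTG, which is its own reverse complement, occurred in 7.15% of 32851 RefSeq promoter windows of the same length, and CATGTG or CACATG in 14.2%, and a match or its absence says nothing here about binding.

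Members of the WMI library carried each activation gene at a level well over the other classes of the same library (the plot of activation genes by class). Levels are given as CPM, the UMIs of a gene per 1000000 UMIs of the pooled barcodes. For comparison, homeostatic microglia were barcodes within the same limits that held at most 1 activation gene and at least 2 of P2ry12, Tmem119, Sall1, Siglech, Gpr34 and P2ry13, and reference neurons held at least 3 Slc17a7 UMIs and no Csf1r, Tyrobp or Ptprc. Plin2 had 255 CPM in the 689 WMI members (95% interval 238 to 273), 11.2 in the 537 WMI homeostatic microglia and 5.50 in the 833 WMI neurons. Gpnmb had 345 CPM in members (325 to 366), 27.3 in homeostatic microglia and 15.4 in neurons. The 34 control members, in contrast, held no Gpnmb UMI, which allows up to 21.9 CPM, and 6 Plin2 UMIs.

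**Figure D1:**
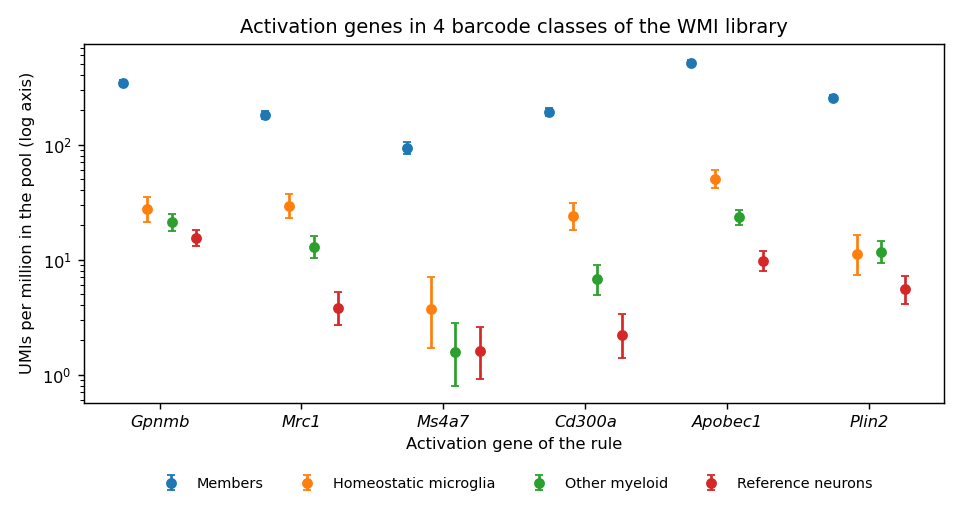
CPM (log axis) of the 6 activation genes in 4 barcode classes of the WMI library, with exact 95% Poisson intervals of the pooled counts. All 6 genes stood highest in the members, as the rule fixes, for example Plin2 at 255 in members and 11.2 in homeostatic microglia.

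The activation genes were not shared evenly among members. Apobec1 was detected in 75.04% of WMI members, Plin2 in 55.7%, Gpnmb in 53.3%, Cd300a in 48.0%, Mrc1 in 30.9% and Ms4a7 in 22.6%. The most frequent pair, Apobec1 with Plin2, was seen in 293 members (42.5%), and Gpnmb with Apobec1 in 272 (39.5%). The border macrophage genes Mrc1 and Ms4a7 were the rarest pair, in 41 members. Exactly 2 activation genes, the edge of the rule, were found in 355 members (51.5%), 3 in 168, 4 in 89, 5 in 64 and all 6 in 13. Just outside the rule lay 702 WMI myeloid barcodes with 1 activation gene.

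Members made up 8.49% of WMI barcodes (95% Clopper-Pearson interval 7.89 to 9.12) and 0.356% of control barcodes (0.247 to 0.498). As a share of all barcodes that met the myeloid part of the rule, they were 27.8% (WMI) and 5.66% (control). The median member held 3813 UMIs in the WMI library against 3728 UMIs among control members. Within the WMI library the share was 8.32% among barcodes with a Y-linked UMI and no Xist, and 9.43% among those with Xist and no Y-linked UMI. In the control library, barcodes with a Y-linked UMI and no Xist gave 0.333%. Whether the share differs between animals of a condition could not be tested, because each condition had 1 library.

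The background of the activation part of the rule was measured in neurons, which should lack these genes. The reference neurons were chosen to hold no Csf1r, Tyrobp or Ptprc, so neurons that had taken up such RNA were left out. Their shares therefore say nothing about the myeloid part of the rule. At the counts deposited, 57 of the 833 WMI neurons (6.84%, 5.22 to 8.77) held at least 2 activation genes, against 3 of 1747 control neurons (0.172%, 0.0354 to 0.501). The neurons were deeper than the members, with medians of 10532 UMIs in the WMI and 10314 in the control library. After every barcode was thinned at random to 1000 UMIs, 2 WMI neurons (0.240%, 0.0291 to 0.865) and 239 WMI members (34.7%, 31.1 to 38.4) still held at least 2. At equal depth the members thus stood above the neurons, as the choice of members fixes.

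To see what else the members carried, UMIs were summed over the WMI members and over the WMI homeostatic microglia, and their levels were set side by side for the 10806 genes whose 2 pools together held 50 UMIs or more (the plot of all genes). A gene counts as higher or lower here when its levels differed at least 2-fold. Of all genes compared, 349 (3.23%) were higher and 54 (0.5%) lower in members, and the median log2 ratio was 0.05, with 5% of genes below -0.55 and 5% above 0.81. Without 3 sub-clusters of members that carried neural RNA, 574 were higher and 311 lower among 9947 genes. This set 546 members against all 537 homeostatic microglia, which were not filtered in that way, so part of the change was built in. Because the classes were chosen by genes that vary together, these shares and all counts below describe the classes, and nothing is read from a list's count against them. The range given with a list's median is that of the same median under up to 17 other settings.

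**Figure D2:**
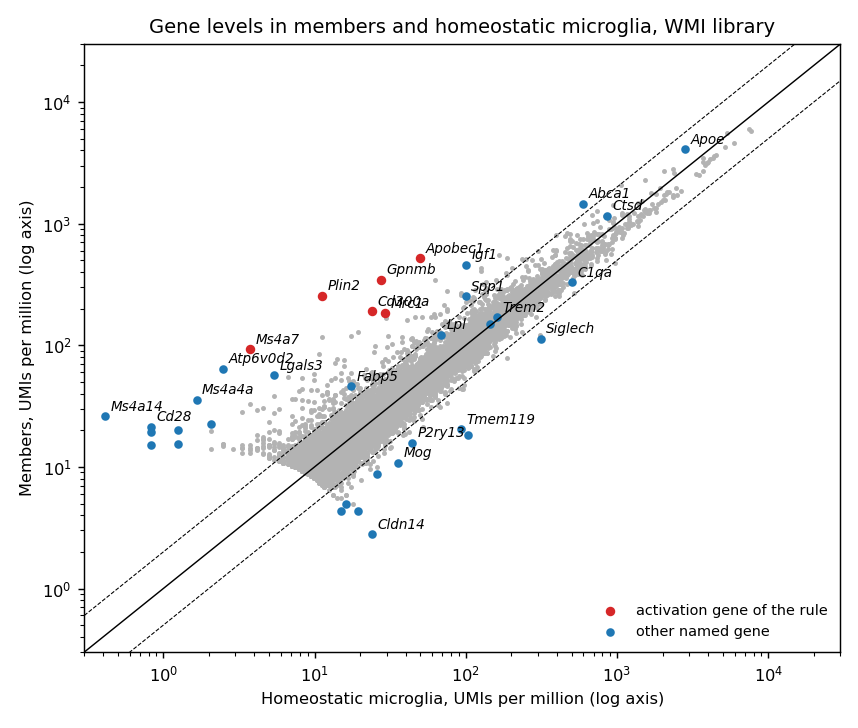
CPM (log axes) of 10806 genes in WMI members and WMI homeostatic microglia. The solid line marks equal levels and dashed lines 2-fold differences. Activation genes of the rule (red), Atp6v0d2, Lgals3, Ms4a14 and Igf1 lay above the upper dashed line, Tmem119, Siglech and Mog lay below the lower one, and most genes lay between the dashed lines.

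Outside the rule, the 10 genes with the highest ratio were Ms4a14, Cd28, Atp6v0d2, AC151410.1, Ms4a4a, Cd300lb, Tnfaip2, F630028O10Rik, Cenpa and Lgals3. Atp6v0d2, a subunit of the proton pump of lysosomes and of osteoclasts, had 64.2 CPM in members and 2.49 in homeostatic microglia (log2 ratio 4.69, 95% interval 3.54 to 6.15). It was present in 10.3% of members, and the neurons had 1.80 CPM. Lgals3 (galectin-3, a lectin recruited to damaged lysosomes) had 56.4 and 5.39 CPM (log2 ratio 3.39, 2.58 to 4.33), and none in control homeostatic microglia or control members. Ms4a14 and Ms4a4a belong to the same gene family as Ms4a7 and were present in 8.42% and 7.98% of members. Ms4a14 rested on 1 UMI in homeostatic microglia, so its log2 ratio of 5.97 had an interval of 3.46 to 11.29, and Ms4a4a had 35.6 CPM in members against 1.66. Cd28, a costimulatory receptor best known from T cells, had 21.4 and 0.829 CPM. The whole list of T and NK cell genes summed to 24.2 CPM in members and 7.46 in homeostatic microglia.

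The 10 lowest included Cldn14, Mobp, Tmem119, Onecut2, Gm3739, Mog, Atp8b1, Siglech and P2ry13. Mobp and Mog encode myelin proteins. Mobp had 18.3 CPM in members and 104 in homeostatic microglia (log2 ratio -2.51, -2.94 to -2.09), and 10.0 in neurons. Mog had 10.8 and 35.6 (log2 ratio -1.72). Of the 8 oligodendrocyte genes, the remaining 6 were within 2-fold, Bcas1 (182 against 162) among them. Tmem119, Siglech and P2ry13 are among the genes that chose the homeostatic class, so their ratios are fixed in direction by that choice.

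Some genes of lipid storage were higher in members. Of 17 lipid droplet genes compared, 4 were higher and none lower (median log2 ratio 0.41, range 0.25 to 0.69), and Plin2 itself is a gene of the rule. Soat1, which esterifies cholesterol for storage, had 112 CPM in members, 44.3 in WMI homeostatic microglia and 32.3 in control homeostatic microglia (log2 ratio 1.34, 1.02 to 1.66). Fabp5, a fatty acid carrier, had 46.2 against 17.4 (1.41, 0.91 to 1.94), and Plin3, another droplet coat protein, 13.6 against 6.22 (1.13, 0.26 to 2.09). Lpl, the lipoprotein lipase, had 122 and 68.8 CPM and 14.2 in control homeostatic microglia, a log2 ratio of 0.82 (0.56 to 1.10) below the 2-fold limit. Of the enzymes of triglyceride synthesis, Dgat1 had 24.8 and 17.8 CPM and Dgat2 10.2 and 17.4 (log2 ratio -0.77, -1.47 to -0.07), and the desaturase Scd2 had 111 and 117. No Plin4 UMI was found in members.

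Among 14 genes of cholesterol handling and export, 5 were higher and none lower (median 0.66, range 0.39 to 1.33). Abca1, the pump that loads cholesterol onto apolipoproteins, had 1457 CPM in members, 599 in WMI homeostatic microglia and 183 in control homeostatic microglia, and was detected in 89.1% of members (log2 ratio 1.28, 1.20 to 1.37). Its partner Abcg1 had 228 and 100 (1.19, 0.97 to 1.40). Nceh1, which frees cholesterol from its esters, had 191 and 74.6 (1.36), and the phospholipid transfer protein Pltp 42.8 and 9.53 (2.17, 1.52 to 2.87). Apoe, the main apolipoprotein of the brain and the gene of this list with the most UMIs, differed by less than 2-fold in the main comparison. It had 4075 CPM in members, 2833 in WMI homeostatic microglia and 155 in control homeostatic microglia, and 469 in WMI neurons. The log2 ratio of members to homeostatic microglia was 0.52 (0.48 to 0.57), and it ran from 0.33 to 1.33 over the settings tried.

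The disease-associated microglia programme, first defined in models of neurodegeneration, was covered by a list of which 22 genes were compared, 2 of them genes of the rule. Of these, 9 were higher and none lower (median 0.75, range 0.47 to 1.28). Igf1, a growth factor for oligodendrocyte lineage cells, had 461 CPM in members, 101 in WMI homeostatic microglia and 19.7 in control homeostatic microglia (log2 ratio 2.20, 2.00 to 2.40). Spp1 (osteopontin) had 254, 99.9 and 0 in the same classes (1.35, 1.14 to 1.56) and 39.9 in WMI neurons, and Clec7a, a glucan receptor, 59.5, 14.9 and 0 (2.00). The receptor Trem2 did not differ in this way in the main comparison, with 170 CPM in members and 161 in WMI homeostatic microglia (log2 ratio 0.08, -0.11 to 0.27). Over the settings tried its log2 ratio ran from -0.14 to 1.24. The tetraspanin Cd9 had 148 and 144. Cst7 and Itgax were sparse, at 1.24 and 8.37 CPM in members.

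Of 28 lysosomal genes compared, 1, Atp6v0d2, passed 2-fold, a share near that of all genes (3.23%), and none was lower by as much (median log2 ratio 0.36, range 0.21 to 0.97). Of the 28 intervals, 15 lay above 0 and 3 below, beside 1836 above and 1219 below among all 10806 genes. The list summed to 7087 CPM in members, 5973 in WMI homeostatic microglia and 3534 in control homeostatic microglia. The proteases Ctsd (1163 against 857) and Ctsb (818 against 488) and the pump subunit Atp6v1a (148 against 77.5) lay above the diagonal. Ctss (308 against 387) and Laptm5 (156 against 215) lay below it. Of the transcription factors known to drive lysosomal genes, Tfec and Mitf passed 2-fold and Tfeb and Tfe3 did not. Mitf had 799 CPM in members, 394 in WMI homeostatic microglia and 175 in control homeostatic microglia (log2 ratio 1.02, 0.91 to 1.13), Tfec 38.7 and 11.2 (1.79, 1.18 to 2.45), Tfeb 73.5 and 53.0 (0.47), and Tfe3 54.2 and 40.2 (0.43). Mitf stood at the 2-fold limit and was under it in 4 of the other settings tried. In all, 4 of 18 transcription factors compared were higher (Tfec, Rxra, Nfe2l2 and Mitf, median 0.48, range 0.27 to 1.41) and none was lower. Without the 3 sub-clusters of neural RNA described below, the medians were 0.67 for the lysosome and 0.90 for the transcription factors. The homeostatic microglia were not filtered in that setting, so nothing is read from these higher medians. The lineage factors Spi1 (125 against 106) and Maf (370 against 324) were close in the main comparison, but their log2 ratios reached 1.44 and 1.38 in other settings.

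Receptors for debris differed among themselves. Of 22 compared, 5 were higher and none lower (median 0.26, range 0.066 to 1.06). Colec12, a scavenger receptor, had 167 CPM in members and 29.8 in WMI homeostatic microglia (log2 ratio 2.49, 2.13 to 2.86), and Msr1, the class A scavenger receptor, 34.7 and 9.12 (1.93). Axl, which recognizes dying cells through Gas6, had 50.8, 17.0 and, in control homeostatic microglia, 3.94 (1.58, 1.08 to 2.11). Its relative Mertk, the gene of the list with the most UMIs, had 1153, 835 and 1049.5, so that control homeostatic microglia lay between the classes of the WMI library. Fcer1g, the shared chain of Fc receptors, had 119 and 122, and no Marco UMI was found in members.

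**Figure D3:**
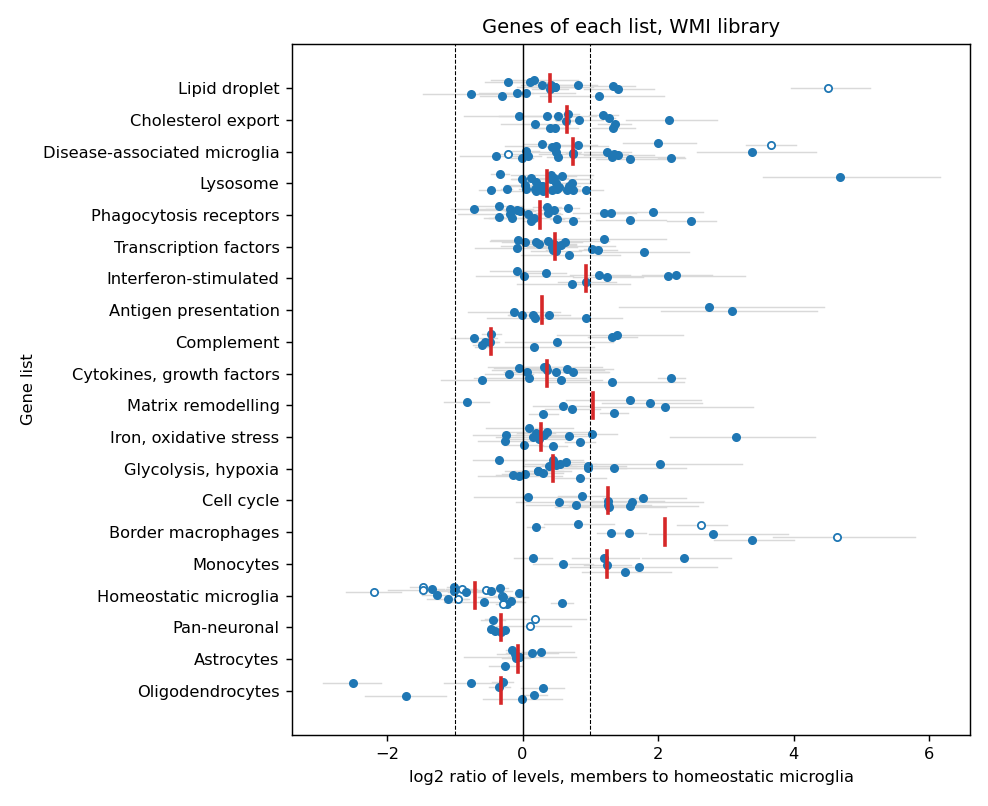
Log2 ratio of levels, WMI members to WMI homeostatic microglia, for the compared genes of 20 lists. Points are genes, grey lines exact 95% intervals, red bars list medians and dashed lines 2-fold. Open points are genes that chose the classes. The medians ran from -0.70 (homeostatic genes) to 2.10 (border macrophage genes), and of the genes that chose the classes the first list holds 8 and the second 2.

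Genes of homeostatic microglia were lower in members than in the class chosen for them, with 8 of 22 at least 2-fold lower and none higher (median -0.70). Their median was 0.72 when all other myeloid barcodes of the WMI library served as comparison. The ratios of Siglech, P2ry13, Sparc, Selplg and Cst3 were then above 0. Those 1790 barcodes were the 537 homeostatic microglia and 1253 that met the myeloid part of the rule but neither class. Among barcodes with a Y-linked UMI and no Xist, the homeostatic list summed to 2362 CPM in that last group. Members had 6189, homeostatic microglia 7412 and all WMI neurons 2013. The last group thus stood near the neurons in that split. Among the homeostatic genes that no rule used, Sparc, a matricellular protein, had 122 CPM in members, 308 in WMI homeostatic microglia and 251 in control homeostatic microglia (log2 ratio -1.33, -1.51 to -1.15). The selectin ligand Selplg had 78.4, 188 and 313 (-1.26, -1.49 to -1.03), and the cystatin Cst3 478, 967 and 669 (-1.02). Cst3 was not 2-fold lower in 4 of the other settings tried, and Selplg in 2. The transcription factor Mef2c was close between classes, at 1743 CPM in members and 1801 in WMI homeostatic microglia. Of the members themselves, 302 (43.8%) held at least 2 of the 6 homeostatic genes of the comparison rule.

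In the complement list, C1qa, C1qb and C1qc, the chains of the first component, had lower levels in members, each within 2-fold, with C1qa at 330 and 501 CPM (log2 ratio -0.60, -0.72 to -0.48). The anaphylatoxin receptors C3ar1 (87.7 against 35.2, log2 ratio 1.32) and C5ar1 (15.2 against 5.80, 1.39) were the 2 higher genes among 9, whereas Itgam, the alpha chain of complement receptor 3, had a log2 ratio of -0.72. The list median was -0.46, but 0.66 when all other myeloid barcodes of the WMI library served as comparison. Class II antigen presentation was found in few barcodes: Cd74 and H2-Ab1 were higher (28.2 against 3.31 and 13.9 against 2.07) but each was detected in 1.89% of members, and against all other myeloid barcodes their log2 ratios were -0.031 and 0.59. The median of the 8 antigen presentation genes compared was 0.28, and -0.02 after thinning to 1000 UMIs.

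Interferon-stimulated genes differed with the sex-linked calls. Over all barcodes, 4 of 9 genes compared were higher (Ifi207, Rsad2, Mx1 and Ifi204), none was lower and the median was 0.94 (range -0.43 to 2.33). The list summed to 416 CPM in WMI members, 230 in WMI homeostatic microglia, 248 in the 34 control members and 27.6 in control homeostatic microglia. Among barcodes with a Y-linked UMI and no Xist, it summed to 556 in 172 members (504 to 612) and 166 in 118 homeostatic microglia (135 to 203). Among those with Xist and no Y-linked UMI it summed to 270 in 223 members (237 to 305) and 339 in 193 homeostatic microglia (299 to 384), so the order of the classes was the opposite. Mx1, a GTPase that restricts viruses, had 64.4 and 5.14 in the first pair and 25.6 and 34.3 in the second. The other 3 higher genes kept their order in the second pair, with Ifi207 at 45.8 and 26.4, Rsad2 at 9.59 and 6.603 and Ifi204 at 40.5 and 37.0, and their intervals overlapped. These calls stand for an unknown number of animals in 1 library, and the difference was not tested.

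Secreted signals were led by Igf1. Of 14 cytokines and growth factors compared, Igf1 and the chemokine Ccl3 (12.4 against 4.97 CPM) were higher and none was lower, with a median of 0.35 that became -0.18 after thinning. No Il6, Il10, Cxcl2 or Lif UMI was found in members, and Il1b (7.44) and Tnf (8.37) were sparse. Among 9 ligands known to act on the oligodendrocyte lineage, Lgals3, Igf1 and Spp1 were higher, and Gas6 had 122 and 72.9. Matrix genes showed 4 of 8 higher (Adam8, Tgfbi, Vim and Spp1, median 1.04) and none lower. That median was 0.17 among barcodes with a Y-linked UMI and no Xist and 0.60 among those with Xist and no Y-linked UMI. It was 0.63 without members with border macrophage markers, while the homeostatic microglia were not filtered. In sub-cluster 4, described below, Tgfbi had 87.3 CPM and Vim 39.4. Sub-clusters 1, 3 and 5 had 23.9, 18.5 and 13.7 of Tgfbi, and 14.0, 2.06 and 13.7 of Vim. Tgfbi also stood at 95.9 in sub-cluster 9 and Vim at 30.5 in sub-cluster 7.

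The list of iron and oxidative stress genes had 2 of 14 higher: Cybb, the catalytic chain of the phagocyte NADPH oxidase, with 33.2 CPM in members and 3.73 in WMI homeostatic microglia (log2 ratio 3.15, 2.17 to 4.32), and the iron exporter Slc40a1 with 77.8 and 38.1 (1.03), which was under 2-fold in 6 other settings. The ferritin chain Ftl1 had 184 and 102, and the haem oxygenase Hmox1, too sparse for the comparison, 11.2 and 1.66. Of 16 genes of glycolysis and hypoxia, the prolyl hydroxylase Egln3 (15.2 against 3.73) and the lactate carrier Slc16a3 (12.7 against 4.97) were higher, none was lower and the median was 0.47 (range 0.048 with Xist and no Y-linked UMI to 0.80 with a Y-linked UMI and no Xist). Cell cycle genes had 6 of 10 higher (median 1.26, range 0.78 to 1.57). Top2a, the topoisomerase of dividing cells, had 41.2 and 12.02 CPM and was detected in 6.096% of members. With both libraries pooled, its level was 804 CPM in sub-cluster 8 (22 barcodes, 20 of them WMI, described below) and 12.6 over all other members.

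Markers of other cells accompanied these levels, and their part in the results was not tested. Border macrophage genes had 6 of 8 higher (median 2.10), 2 of them genes of the rule, and summed to 1374 CPM in WMI members, 592 in WMI homeostatic microglia, 2470 in control members and 652 in control homeostatic microglia. F13a1, a defining gene of these cells, had 117 and 11.2 in the WMI library but occurred in 7.402% of members. Without the members that held at least 2 of Pf4, Cbr2, F13a1, Cd163, Lyve1 and Stab1, the list median was 1.11. These markers belong to the list, and the 537 homeostatic microglia were not filtered. A fall was therefore built in, and nothing is read from it. Monocyte genes had 5 of 7 higher (Ms4a6c, Ccr2, S100a6, Lyz2 and Cd44, median 1.25, range 0.59 to 1.41), with Lyz2 the most counted at 92.7 CPM. Of the defining monocyte genes, Ly6c2 had 1.55 CPM and Ccr2 13.6, in 0.29% and 2.47% of members. Neutrophil markers Ly6g, Mmp9, Camp and Ngp, the lymphocyte markers Cd3d, Cd8a, Klrb1c and Pax5 and the dendritic cell markers Cd209a and Ccr7 were at 0 in the WMI members, which allows up to 0.93 CPM. Other genes of these lists had UMIs in members. The neutrophil list summed to 286 CPM in members and 201 in homeostatic microglia, nearly all of it Csf3r (283 against 189), the B cell list to 9.61 and 13.3 and the dendritic cell list to 41.5 and 32.3, led by Ebf1 (7.13) and Zbtb46 (23.2). Csf3r is also a gene of the homeostatic microglia list, and its log2 ratio was 0.58, with an interval above 0. Skap1, an adaptor of T cells and the most counted gene of the T and NK cell list, had 15.2 CPM and was in 2.18% of members. In sub-cluster 1, described below, Skap1 had 36.5 CPM, Themis 11.2, Trbc2 4.21, Cd3g 2.81, and Cd3e and Trac 1.40 each.

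Neural RNA was present in both classes. Members summed to 10668 CPM for the 7 pan-neuronal genes, homeostatic microglia to 13989 and neurons to 22729.9, and Meg3 was found in all members. Astrocyte genes summed to 1210 and 1311, oligodendrocyte precursor genes to 1439 and 1431, and oligodendrocyte genes to 756 and 959 in members and homeostatic microglia. None of these genes was 2-fold higher in members. The intervals of 5 of 7 pan-neuronal and 5 of 8 oligodendrocyte genes lay below 0, beside 1219 of all 10806 genes compared. Gad1 and Gad2, 2 of the 7 pan-neuronal genes, were limited by the rule in both classes. Without the 3 sub-clusters of neural RNA described below, the median log2 ratios of the astrocyte, oligodendrocyte precursor and oligodendrocyte lists were -0.88, -0.89 and -0.88. That setting took barcodes rich in neural RNA from the members only and kept all 537 homeostatic microglia. A fall of these medians was therefore built in, and nothing is read from it. The oligodendrocyte sum changed its order with the sex-linked calls: it was 505 in members and 1347 in homeostatic microglia among barcodes with a Y-linked UMI and no Xist, and 965 and 625 among those with Xist and no Y-linked UMI. This difference was not tested. Endothelial, mural and fibroblast lists summed to 20.8, 8.99 and 27.3 in members, with Ly6c1, Kcnj8, Acta2 and Lum at 0.

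Within the members, the levels of several genes followed the number of activation genes, from the barcodes just outside the rule to those with 5 or 6 (the plot of levels by activation genes), and those of others did not. Since the counts of activation genes chose these bins, the order is a description. Igf1 had 91.9 CPM with 1 activation gene, 225 with 2, 470 with 3, 644 with 4 and 1211 with 5 or 6. Spp1 went from 103 to 161, 297, 344 and 464, and Atp6v0d2 from 4.79 to 11.4, 57.7, 66.0 and 286. Lpl peaked in the middle, with 63.4, 103, 163, 149 and 97.1, as did Cd9 with 127, 145, 174, 149 and 117, and Apoe with 2101, 3053, 5178, 4777 and 5526 dipped at 4. Siglech took the opposite course after the second bin, with 122, 151, 97.5, 70.7 and 29.1, and the pan-neuronal list stood at 16064 in the first bin and 6839 in the last. Depth followed the same order, from a median of 3368.5 UMIs with 1 activation gene to 4692 with 5 or 6, and its part in the trend was not tested.

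**Figure D4:**
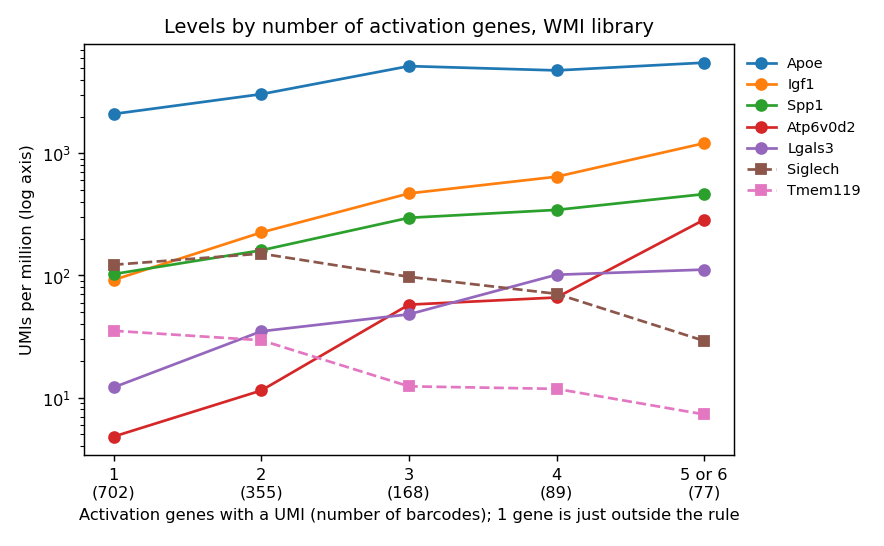
CPM (log axis) of 7 genes in WMI myeloid barcodes by the number of activation genes detected, with the number of barcodes in parentheses. Points are pooled levels without intervals. Apoe, Igf1, Spp1, Atp6v0d2 and Lgals3 were higher and Siglech and Tmem119 lower at 5 or 6 activation genes than at 1.

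The members fell into 9 sub-clusters when they were clustered without the genes of the rule, sex-linked genes and mitochondrial genes (the plot of sub-clusters). Leading genes are those with the highest level over all other members. Sub-clusters 1, 3 and 5 together held 400 WMI members (58.1%) and 1 control member. Sub-cluster 1 (227 barcodes) was led by Selenop, a selenium carrier, Blvrb, Tubb3, Usp35 and Clec7a, with Apoe at 6082 CPM. It was weakly set apart, as these leading genes had log2 ratios over other members of only 1.24 (Selenop) to 1.01 (Clec7a). Its median depth, 2934 UMIs, was the lowest of the 9, and its pan-neuronal sum, 10882 CPM, was second to that of sub-cluster 4 (20608). Sub-cluster 3 (99, all WMI) was led by Ifi209, Rsad2, Mx1, Ms4a14 and AC151410.1. It had the highest Gpnmb (752), Plin2 (636) and Atp6v0d2 (220) of all 9. Sub-cluster 5 (75, all WMI) was led by Olfr111, Hectd2os, Gm37168, Myo1e and Fam20c, and had the highest Igf1 (1239), Lpl (376) and Cd9 (319).

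A further 3 sub-clusters stood closer to other myeloid states. Sub-cluster 2 (135 barcodes) had Siglech, Ptgs1, Slc2a5 and Tmem119 among its 5 leading genes and was homeostatic microglia-like, with 80.4 Gpnmb CPM. It held 112 WMI members and 23 of the 34 control members. Sub-cluster 9 (19 barcodes, 5 of them control) was led by Cd163, F13a1, Pf4, F630028O10Rik and Mrc1 and was border macrophage-like, with Mrc1 at 3934 and Gpnmb at 82.2 CPM. Sub-cluster 8 (22 barcodes) was led by Lockd, Neil3, Cdca2, Kif11 and Ndc80, and its cell cycle list summed to 4264 CPM.

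**Figure D5:**
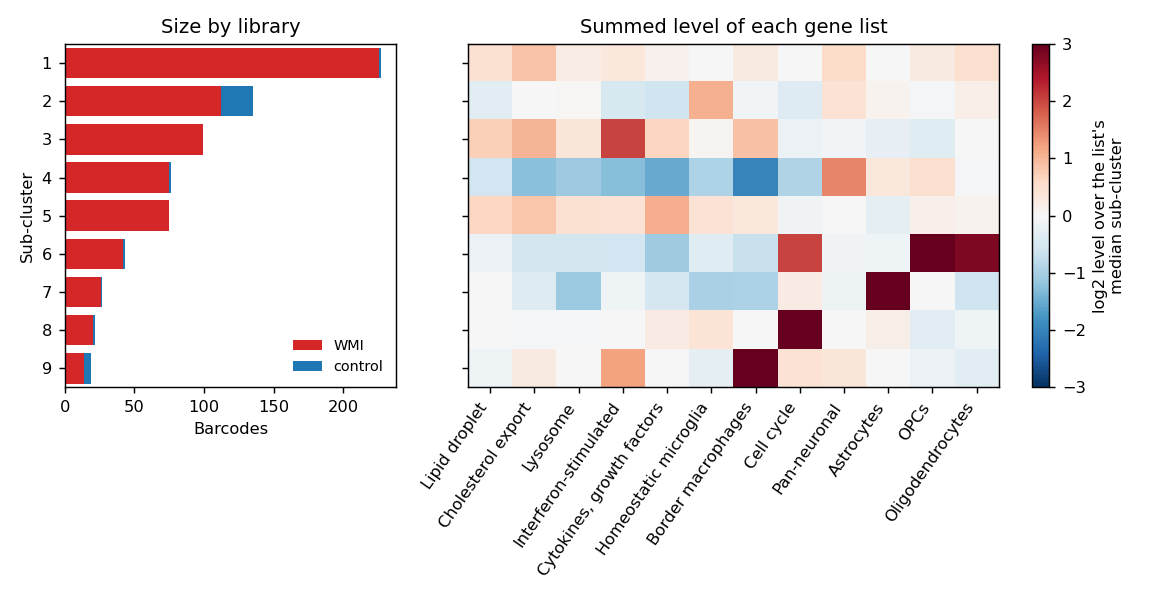
Number of barcodes in 9 sub-clusters of the members by library (left), and summed CPM of 12 gene lists in each sub-cluster, as log2 over the list's median sub-cluster (right, colours capped at 3 in either direction). Sub-cluster 3 stood out in interferon-stimulated genes, 6 in oligodendrocyte lineage genes, 7 in astrocyte genes, 8 in cell cycle genes and 9 in border macrophage genes.

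The remaining 3 sub-clusters carried RNA of neural cells. Sub-cluster 6 (43 barcodes) was led by S100a3, Gm10863, Sox10, Cacng4 and Afap1l2, with 7261 CPM of the oligodendrocyte precursor list, and 28 of its barcodes (65.1%) were predicted doublets. Sub-cluster 7 (27) was led by Gli2, C530044C16Rik, Aldh1a1, Prdm16 and Acsbg1, with 8586 of the astrocyte list and 12 predicted doublets (44.4%). Sub-cluster 4 (76), led by Rapgef4os1, Lgals1, Gm26565, Gm37340 and Gm26883, had 20608 of the pan-neuronal list, the lowest myeloid rule genes (614) and 14 predicted doublets (18.4%). It also had the highest levels of the monocyte genes Ccr2 (39.4), Plac8 (22.2) and S100a4 (11.98) and of the class II genes Cd74 (94.1) and H2-Aa (32.5) among the 9 sub-clusters. These 3 held 143 WMI members (20.8%), and in them the name of activated myeloid cells rests on RNA found together with that of neural cells. Over all WMI members, 71 (10.3%) were predicted doublets, against 59 (11.0%) of WMI homeostatic microglia. The share was 6.68% (542) over all WMI barcodes within the limits and 4.55% (57) over WMI myeloid barcodes of neither class. Without these 3 sub-clusters the WMI share of members was 6.73% and the control share 0.325%.

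Of the 34 control members, 30 (88.2%) held exactly 2 activation genes, as did 355 (51.5%) of the WMI members, and 4 held 3. At least 2 of the 6 homeostatic genes were held by 24 control members (70.6%) and 302 WMI members (43.8%). The activation genes chose the members, so their levels here are a description. Mrc1 supplied 107 of their activation gene UMIs (780 CPM, in 70.6% of control members), Apobec1 31, Cd300a 23, Plin2 6 and Ms4a7 5. Neither Gpnmb, Spp1, Lgals3, Clec7a nor Atp6v0d2 had a UMI in them, and Apoe had 53. Without Mrc1 in the rule the control share was 0.147% and the WMI share 7.31%. As fewer than 50 control members were found, no gene comparison between control and WMI members was made.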

How the data were processed

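The files hold counts of UMIs per gene and barcode for 2 libraries of mouse cortex, as deposited by the authors after Cell Ranger 6.1.1 (per the file headers). The labels name the mm9 build, whereas all gene identifiers matched the GENCODE M21 annotation of GRCm38, which was used for names. No doublet removal by the authors is stated in the sources used here. Members and gene lists were chosen with earlier results of these data known.

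UMIs were summed over the barcodes of each class and divided by the total of the pool. Ratios carry exact conditional binomial 95% intervals, levels exact Poisson intervals and shares Clopper-Pearson intervals, all of counting error only. A count of 0 allows 3 counts. The ratio code was tested on simulated data. Predicted doublets, found per library by comparison with simulated ones (expected rate of 0.8% per 1000 barcodes), were kept in the main results. Sub-clusters were made with scanpy 1.11.5 (Leiden, resolution 0.5, 2000 variable genes, 20 components, 15 neighbours). Leading genes had at least 20 UMIs and were found in at least 15% of the sub-cluster. Named genes were the genes of the rule and the sex-linked genes, the 10 highest and 10 lowest ratios, of each list the most counted gene and up to 4 with the largest ratios, the 5 leading genes of each sub-cluster and defining markers at 0. A few of these genes are not reported here. Further list members were named after their values were seen. TMM factors came from edgeR. With 1 library a condition, no test was run.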

Additional observations from a re-analysis of the deposited data

How the results depend on the processing

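No paired analysis was possible because each condition had 1 library and no test was run. The WMI share of members, 8.49%, was 2.18% after thinning to 1000 UMIs, 4.12% with at least 3 activation genes, 7.31% without Mrc1, 6.98% without Plin2, 3.66% with no neuronal UMI, 10.2% with no limit on them and 6.73% without the 3 sub-clusters of other cell types. The control share, 0.356%, was 0.0419% after thinning and again with at least 3 activation genes, 0.147% without Mrc1 and 0.157% with no neuronal UMI. Limits on UMIs and mitochondrial share, removal of predicted doublets and the restriction to Y-linked barcodes left both shares within their intervals.

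The main comparison had 349 higher and 54 lower of 10806 genes. Thinned to 1000 UMIs these were 130 and 32 of 4838. With a minimum of 20 UMIs they were 646 and 235 of 14096, of 200 UMIs 134 and 14 of 5198, and without a minimum 1623 and 1559 of 20396. With at least 3 activation genes they were 560 and 234 of 9425, and against all other myeloid barcodes 1172 and 366 of 13565. Without the 3 sub-clusters of other cell types they were 574 and 311 of 9947, and with sub-clusters 1, 3 and 5 alone 625 and 356 of 9400. These sub-cluster settings filtered the members only and kept all 537 homeostatic microglia. Among Xist barcodes without a Y-linked UMI 211 genes were higher and 56 lower of 5995. Among Y-linked barcodes without Xist 244 were higher and 83 lower of 5039. The cause of these changes was not tested.

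Settings that leave out or keep only some sub-clusters, the comparison with microglia without any activation gene and that with all other myeloid barcodes were chosen after seeing the data. Against all other myeloid barcodes the log2 ratios of Siglech (0.31), P2ry13 (0.13), Sparc (0.058), Selplg (0.22) and Cst3 (0.099) became positive and that of Cd74 (-0.031) negative, and among Xist barcodes without a Y-linked UMI that of Mx1 was -0.43. Of the 1790 other myeloid barcodes, 1253 were outside the homeostatic class. Abca1, Abcg1, C3ar1, Cd44, Cenpf, F13a1, Fabp5, Gm3739, H2-Ab1, Ifi207, Kif11, Lyz2, Mog, Nfe2l2, Soat1, Spp1, Tgfbi, Tmem119 and Vim came under 2-fold in 1 setting. Ifi204, Rxra, Selplg and Skap1 did so in 2, S100a6 in 3, Cst3 and Mitf in 4 and Slc40a1 in 6. For Selplg and Cst3 the positive ratio given above is counted. The other genes past 2-fold whose ratios were recomputed kept their direction in every setting that gave a value. Some genes within 2-fold in the main comparison passed it in another setting. Their highest log2 ratios were 1.33 (Apoe and Lpl), 1.24 (Trem2), 1.44 (Spi1) and 1.38 (Maf), among others. The ratios of the leading genes of sub-clusters were not recomputed unless another part of the naming rule chose them. Sub-clusters numbered 7 and 12 at resolutions 0.3 and 1.0. Depth limits sparse genes such as Ms4a14, whose interval ran from 3.46 to 11.29.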

Other observations

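Of the barcodes outside the limits on UMIs, genes and mitochondrial share, 0 of 748 in the control library and 0 of 241 in the WMI library met the gene rule, which allows shares of up to 0.492% and 1.52%.

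The sub-clusters held the sex-linked calls in unequal parts, given as values only. In sub-cluster 5, 28 of the 75 barcodes (37.3%) carried a Y-linked UMI without Xist and 17 (22.7%) carried Xist without a Y-linked UMI. In sub-cluster 2, the same calls took 18.8% and 39.3% of the 112 WMI barcodes, and in sub-cluster 3, 26.3% and 30.3% of 99. Atp6v0d2 had 36.8 CPM (24.5 to 53.2) in the 172 members with a Y-linked UMI and no Xist and 113 (92.5 to 137) in the 223 members with Xist and no Y-linked UMI, while its share of barcodes was close, 9.30% and 10.8%. Gpnmb stood at 268 (233 to 308) and 441 (400 to 486) in the same order, whereas Spp1 had 360 (319 to 405) and 200.3 (173 to 231), and the lipid droplet list summed to 1217 and 1244.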
